A study of Drosophila melanogaster with 4 samples.

Results

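Among the sites that Insensitive (Insv) occupied in both younger and older Drosophila melanogaster embryos, 958 had a late score between 0.5 and 1 times their early score. They are called mid-ratio pairs here. Each is a mutual pair, that is, an early and a late called position on one chromosome that were each other's nearest by start coordinate and lay at most 200 bp apart. There were 2233 mutual pairs in all, of which the mid-ratio pairs made up 42.9%. The 646 pairs with a ratio above 1 made up 28.9% and the 629 with a ratio below 0.5 made up 28.2%. The classes were chosen by the early and late scores themselves, so these shares, scores and ratios are a description and support nothing. The mid-ratio pairs held 17.9% of the 5364 early positions and 40.1% of the 2390 late positions.

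The positions come from chromatin immunoprecipitation with an Insv antibody followed by sequencing (ChIP-seq) of w[1118] embryos, a white-eyed laboratory stock that the labels list as wild type. Whole embryos aged 2.5-6 h (early) and 6.5-12 h (late) gave 1 Insv library each. An IgG control exists at each age, and its data were not analysed here. With 1 library per age there is no replicate error, and no difference between the ages or between classes of pairs was tested. A lower score in whole embryos can come from fewer bound nuclei or from less binding per nucleus, which cannot be told apart. The score is the authors' own value per called position, of unnamed scale, and its scale is not known to be the same in both lists. The read depth behind it is unknown.

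Insv is a nuclear BEN-domain protein that binds DNA at a palindromic site and represses transcription. It is known for its part in the development of the peripheral nervous system, where it acts with the Notch pathway. The related fly BEN-domain proteins Elba1 and Elba2 belong to a complex that acts at chromatin boundaries of the early embryo. Neither a genome sequence nor a gene annotation of dm3, the build named in the submitters' processing notes, was used here, so sites are named by dm3 coordinate alone, without genes or sequence.

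The band from 0.5 to 1 was set to bracket the median ratio of all pairs, so the ratios of its members are a description of that choice. The median late/early ratio of all 2233 pairs was 0.702, with quartiles of 0.474 and 1.07, and the median of the mid-ratio pairs was 0.697. Of the mid-ratio pairs, 487 had a ratio under the median of all pairs, 470 a ratio over it and 1 was at it. The lower part of the band was the fuller one, with 244 pairs from 0.5 to 0.6 and 240 from 0.6 to 0.7, against 142 from 0.9 to 1. A late score lower than the early one, as printed, was thus also the rule among all pairs, and lower here does not mean lower than in the typical pair.

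The places among the pairs follow from the same choice. When all pairs were ordered by early and again by late score, 485 of the mid-ratio pairs (50.6%) stood nearer the top in the late order, 470 (49.1%) stood farther from it and 3 held the same place. The median shift was 2 places, with quartiles of -99 and 115 and extremes of -370 and 399 places. Every pair with a ratio above 1 stood nearer the top in the late order and every pair with a ratio below 0.5 farther from it, with median shifts of 476 and -458 places. These shifts restate the ratio on another scale and are no independent evidence.

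**Figure D1:**
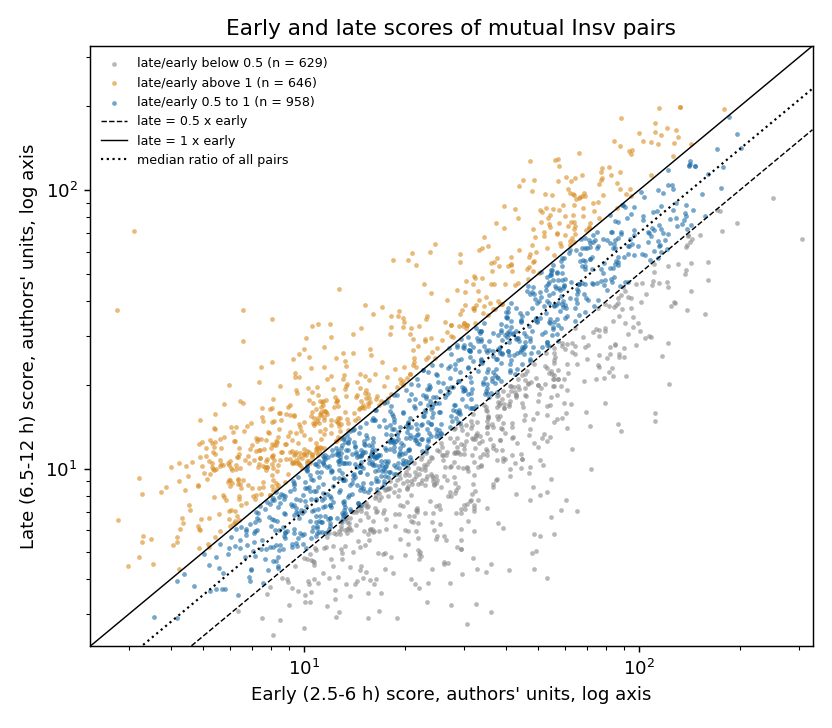
Each point is a mutual pair, with its early score on the horizontal and its late score on the vertical axis (authors' units, log axes). Blue points are the 958 mid-ratio pairs between the dashed line (ratio 0.5) and the solid line (ratio 1), and the dotted line at the median ratio of 0.702 runs through the middle of them.

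Mid-ratio pairs covered nearly the whole range of strengths. The early score was 23.3 at the median (quartiles 13.1 and 49.5), between extremes of 3.57 and 202. The late score was 15.8 at the median (quartiles 9.60 and 34.3), between extremes of 2.91 and 183. The median pair was number 1203 of the early list and number 1036 of the late list when each list is ordered from its highest score. This is percentile 77.6 of the early and 56.7 of the late scores, where 100 is the highest. Over all pairs the median percentiles were 77.2 and 52.4. The lists differ in length, so these numbers show no change between the ages.

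The other classes differed in early strength in the way their definition favours. The median early score was 11.7 in pairs with a ratio above 1 and 31.9 in pairs with a ratio below 0.5, so the mid-ratio pairs stood between them. Of the mid-ratio pairs, 245 (25.6%) were in the top 10% of early scores and 102 (10.6%) in the top 10% of late scores. Over all pairs these shares were 23.9% and 10.7%.

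The share of mid-ratio pairs did not move evenly with strength. Among all pairs divided into 10 equal groups by early score, it was 23.2% in the weakest group (95% exact binomial interval 17.9 to 29.3), 50.7% in group 4 (43.9 to 57.4), 38.6% in group 7 (32.1 to 45.3) and 47.3% in the strongest (40.6 to 54.1). The weakest early group was instead 75.4% pairs with a ratio above 1. Ordered by late score, mid-ratio pairs were most frequent in group 9, with 57.4% (50.6 to 64.0), and made up 41.1% of the strongest group, in which 53.1% had a ratio above 1. Ordering by either score pushes high and low ratios to opposite ends, so the outer groups describe the ordering as much as the sites. Intervals here and below cover counting error alone, as if neighbouring positions were independent draws.

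**Figure D2:**
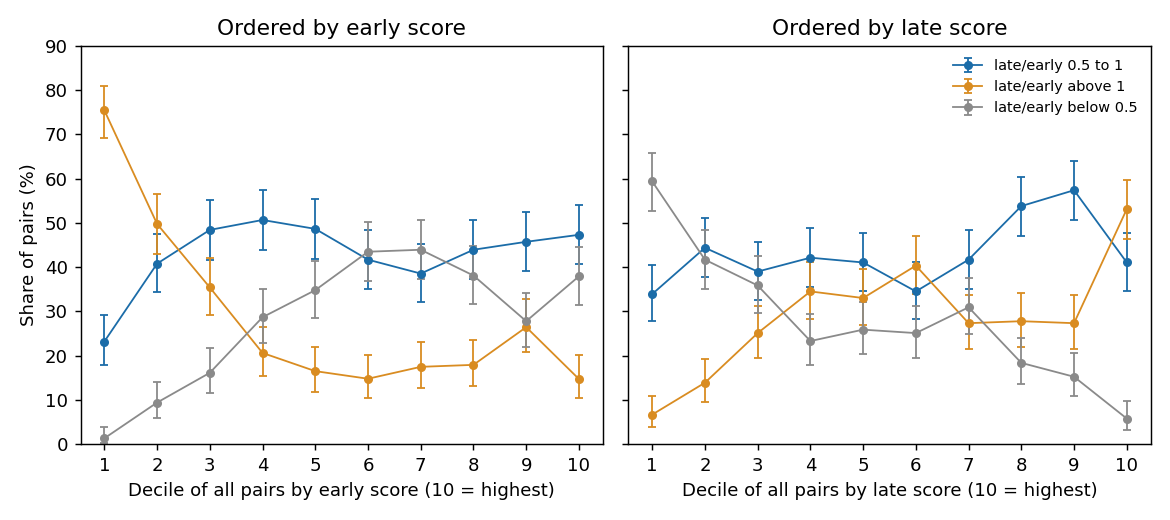
The share of pairs in each ratio class (vertical axis, %) is plotted over 10 groups of pairs ordered by early score (left) or late score (right), where group 10 is the strongest and bars are 95% exact binomial intervals. The mid-ratio share (blue) is lowest, 23.2%, in the weakest early group and highest, 57.4%, in late group 9.

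Score steps moved with the ratio class, in part through a cut at a score of 10. Part of the scores fell on a grid: above 10, they were whole multiples of a step of 0.0340 in the early list or 0.0298 in the late list, to within 0.75 units of the last printed digit. These were 640 of 3184 early scores above 10 (20.1%) and 780 of 1648 late ones (47.3%). Scores of 10 or less were counted as off the step, and both scores were above 10 in 1419 of 2233 pairs (63.5%). A pair with its late score alone above 10 has a ratio above 1, and one with its early score alone above 10 has a ratio below 1. The cut thus fixes part of the contrast that follows. Among the 598 pairs with only the late score on its step, 54.3% had a ratio above 1 and 40.0% were mid-ratio pairs. Among the 172 pairs with only the early score on its step, 4.07% had a ratio above 1 and 27.3% were mid-ratio pairs. Where both scores were on their steps, 88 of 136 pairs (64.7%, interval 56.1 to 72.7) were mid-ratio pairs, and where neither was, 584 of 1327 (44.0%, 41.3 to 46.7). The part of the steps in the ratio, and so in which pairs fall in the band, was not tested.

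The strongest mid-ratio pairs were among the strongest Insv sites of the embryo at both ages. Of the 50 highest early positions 23 belonged to mid-ratio pairs, and of the 50 highest late positions 13. Over the whole lists, mid-ratio pairs held 17.9% of early and 40.1% of late positions, so the late count was under their overall share. The early base of 17.9% includes the many early positions without a late partner. Among pairs in the strongest of 10 equal groups, 47.3% by early and 41.1% by late score were mid-ratio pairs. The early count is thus not read as an excess. Of the 17 pairs in the top 50 of both lists, 12 were mid-ratio pairs, which were 42.9% of all pairs. A ratio near 1 or a little under it is favoured by being high in both lists, so this is a description of the band.

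The highest early score of a mid-ratio pair was 202, at chrX:7056778-7056779. Its late partner 8 bp away scored 142, a ratio of 0.702, and the pair was number 3 of the early and number 22 of the late list. At chrX:8801070-8801071 the early score was 197 and the late score 159, numbers 5 and 12, with 5 bp between the positions. The nearest to equal of the 10 highest was chr2R:10028542-10028543, with 186 early and 183 late, a ratio of 0.985. It was number 6 early and number 5 late, and its late position lay 2 bp away.

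The other early leaders stood farther from the top in the late list than in the early list. At chrX:1816985-1816986 the scores were 179 early and 121 late. The pair at chrX:16217245-16217246 had 176 early and 102 late, numbers 10 and 62. On 2L the highest was chr2L:5461427-5461428, with 171 early and 140 late. On 3R it was chr3R:25632936-25632937, with 157 early and 80.8 late, a ratio of 0.514 and number 123 late, the lowest late place among these 10. The remaining leaders were at chrX:16550002-16550003 (161 early, 114 late), chrX:15656942-15656943 (154 early, 96.8 late) and chrX:16481242-16481243 (147 early, 122 late). Of the 10, 7 were on X, each of the 10 was the highest early position of its region, and no region held fewer than 2 positions. Here a region is a chain of early positions with no step over 1000 bp. In the strongest of 4 equal groups of pairs by early score, X held 29.0% of mid-ratio pairs. It held 20.7% of pairs above 1 and 25.7% of those below 0.5. In that group 86.3%, 83.6% and 83.4% of these classes lay in regions of 2 or more positions, so such regions were not particular to the band.

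Ordered by late score, the 10 highest mid-ratio pairs shared 5 pairs with the early 10. The others had closely spaced values, from 122 to 127 late and from 141 to 147 early, with ratios from 0.830 to 0.897. They lay at chr3R:2680176-2680177, chrX:8137396-8137397, chr2L:5403901-5403902, chr2R:5581148-5581149 and chrX:19386429-19386430. The pair at chr3R:2680176-2680177 was number 31 in both lists, with 142 early and 127 late. On 3L the strongest mid-ratio pair was chr3L:13221152-13221153, with 136 early and 78.3 late. On the small chromosome 4 it was chr4:1105519-1105520, with 38.5 early and 26.0 late.

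Of all mid-ratio pairs, whatever their strength, 166 (17.3%) had no other early position in a chain of steps up to 5000 bp. The share was 19.9% over all pairs, 30.8% above a ratio of 1 and 12.6% below 0.5. The strongest lone mid-ratio pair was chr2L:5403901-5403902, with 141 early and 123 late and the nearest other early position 27282 bp away. Its late partner was 56 bp away, the widest gap among the 10 highest late scores. Next came chr2L:13780667-13780668, with 130 early and 74.5 late, and chr3R:678237-678238, with 129 early and 79.8 late.

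At the edges of the band, the values ran on without a break. Just inside the lower bound were chrX:15343612-15343613 (114 early, 57.1 late), chrX:9494467-9494468 (29.2 early, 14.6 late) and chrX:3028792-3028793 (14.8 early, 7.43 late). Just outside were chr2L:16269058-16269059 (75.4 early, 37.7 late), chr2L:20429322-20429323 (16.5 early, 8.26 late) and chr2L:5879942-5879943 (89.8 early, 44.9 late). At the upper bound, the nearest inside were chr3L:21634000-21634001 (8.26 early, 8.24 late), chr3L:21673144-21673145 (22.63 early, 22.58 late) and chr3R:5536113-5536114 (22.7 early, 22.6 late). The nearest outside were chrX:11263487-11263488 (38.97 early, 39.01 late), chr2L:13837824-13837825 (50.26 early, 50.33 late) and chr3R:16078941-16078942 (35.47 early, 35.54 late). These pairs were picked as the nearest to each bound. The bounds are limits set on a range of ratios, and whether they part kinds of site was not tested.

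Rank shifts within the band were largest at middling scores. The pair at chr2L:3159635-3159636 scored 17.3 early and 17.2 late and rose 399 places among the pairs, the most of any mid-ratio pair. Those at chr2R:17389727-17389728 and chrX:13888983-13888984 rose 388 and 386 places. The largest falls, of 370, 366 and 365 places, were at chrX:8009510-8009511, chrX:3028792-3028793 and chrX:13889497-13889498. One of each lay side by side: chrX:13888983-13888984, with 17.7 early and 17.4 late, was 514 bp from chrX:13889497-13889498, with 16.5 early and 8.47 late.

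Mid-ratio pairs were spread over every main arm, with the most on X. X held 263 (27.5% of them, beside 22.5% of all pairs), 3R 205, 3L 172, 2R 160, 2L 153 and chromosome 4 held 5. Among pairs with neither score on a step, X held 17.5% of the mid-ratio pairs and 15.1% of all pairs. None lay on a sequence outside these arms, and no chromatin annotation was used. X carried 11.8 mid-ratio pairs per Mb of the span between its outermost positions, against 6.96 on 2L, 7.29 on 3L, 7.36 on 3R and 7.81 on 2R. All pairs were also densest on X, with 502 in its span of 22.2 Mb. There were 368 in 22.0 Mb on 2L, 379 in 20.5 Mb on 2R, 439 in 23.6 Mb on 3L and 531 in 27.9 Mb on 3R. A higher density on X was thus not particular to the band. The median distance between neighbouring mid-ratio pairs along an arm was 25.0 kb on X and from 45.7 to 66.8 kb on the other large arms.

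X also had the largest share of its own pairs in the band. Of 502 pairs on X, 52.4% were mid-ratio pairs (95% exact binomial interval 47.9 to 56.8), against 40.2% (37.9 to 42.6) of 1729 pairs on the autosomes. The 4 large autosomal arms ran from 38.6% on 3R to 42.2% on 2R. On X the pairs with a ratio above 1 were fewer, 22.5% (18.9 to 26.4) against 30.7% (28.5 to 32.9) on the autosomes. The median ratio was 0.666 on X and 0.722 on the autosomes, and the quartiles were 0.499 and 0.945 on X and 0.469 and 1.11 on the autosomes. The quartiles on X were thus closer together, about a lower median. With 1 X and 4 large autosomal arms, this contrast was not tested.

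Strength and score steps were set beside the X share. In 4 equal groups of pairs by early score, from weakest to strongest, mid-ratio pairs made up 39.7%, 65.8%, 46.7% and 50.7% of the X pairs and 34.6%, 43.8%, 39.4% and 43.9% of the autosomal pairs. The X value was higher in each group, and the intervals were apart in group 2 alone (57.5 to 73.4 against 38.9 to 48.7). Pairs with at least 1 score on a step were more common on X: neither score was on a step in 39.8% of X pairs and 65.1% of autosomal pairs. Among the pairs with neither score on a step, 51.0% on X (43.9 to 58.1) and 42.8% on the autosomes (39.9 to 45.8) were mid-ratio pairs. Among those with the late score alone on its step, the values were 54.4% (46.9 to 61.8) and 33.7% (29.2 to 38.5). With the early score alone on its step, they were 33.3% (21.4 to 47.1) and 24.3% (16.8 to 33.2). With both scores on their steps, they were 68.3% (55.3 to 79.4) and 61.6% (49.5 to 72.8). The X share was higher within each step class, and the intervals were apart only with the late score alone on its step. The part of the steps in the X share was not tested.

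**Figure D3:**
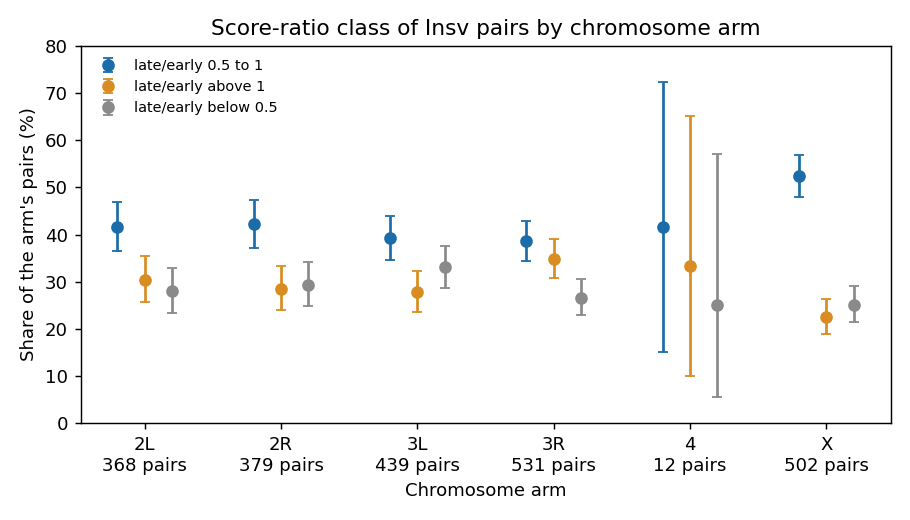
For each chromosome arm, the points give the share of its mutual pairs (vertical axis, %) in the 3 ratio classes, with 95% exact binomial intervals. The mid-ratio share (blue) is 52.4% on X and between 38.6% and 42.2% on the other large arms, and chromosome 4 has too few pairs (12) for a useful interval.

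Along the arms, mid-ratio pairs were seldom far apart. Of 122 windows of 1 Mb, 6 held none, and the median window held 7 (quartiles 4 and 10). The fullest was X from 16000001 to 17000000, with 21 mid-ratio pairs among 34 pairs. The neighbouring window, from 15000001, held 20 of 37. On 3L, the window from 21000001 to 22000000 held 20 of 31. The longest stretch without one was 1204 kb of 2L, from 13835591 to 15039452, in which 7 pairs of the other classes lay.

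The early and late positions of a mid-ratio pair lay close together, within the limit of 200 bp that the pairing set. The median distance was 8 bp, with quartiles of 4 and 15 bp and a maximum of 154 bp, and 84.2% (interval 81.8 to 86.5) lay within 20 bp. In 34 pairs the positions began at the same base, and in 7 they were more than 100 bp apart. The late position had the higher coordinate in 477 pairs and the lower in 447, and the median offset was 0 bp. The other classes had the same median distance of 8 bp, and 83.0% and 81.9% of them lay within 20 bp, so their intervals (79.8 to 85.8 and 78.6 to 84.8) overlapped that of the mid-ratio pairs. With the mid-ratio pairs in 4 equal groups by early score, from weakest to strongest, 77.1%, 81.2%, 87.9% and 90.8% lay within 20 bp.

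Grouping of the mid-ratio pairs was close to that of all pairs. In the early list 657 (68.6%, 65.5 to 71.5) lay in a region of 2 or more positions, 451 (47.1%) in a region of 3 or more and 132 (13.8%) in one of 6 or more. Over all pairs these shares were 66.5% (64.5 to 68.4), 45.0% and 13.1%. The share in a region of 2 or more was 53.6% (49.6 to 57.5) for pairs with a ratio above 1 and 76.5% (73.0 to 79.7) for those below 0.5. The nearest other early position was 386 bp away at the median, against 723 and 333 bp in these classes. The nearest other mid-ratio pair was 6514 bp away at the median, with an upper quartile of 46334 bp.

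Early strength moved with grouping, and the classes differ in early strength. With all pairs in 4 equal groups by early score, 86.3% of mid-ratio pairs, 83.6% of those above 1 and 83.4% of those below 0.5 lay in a region of 2 or more positions in the strongest group. In the weakest group the values were 43.7% (36.6 to 50.9), 33.0% (27.9 to 38.4) and 60.5% (43.4 to 76.0). In pairs of like strength the intervals of the mid-ratio pairs overlapped those of both other classes in each group.

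Early positions that had no late position within 200 bp lay beside mid-ratio pairs about as often as beside pairs in general. Of the 958, 333 (34.8%, 31.7 to 37.9) had at least 1 such position within 1000 bp and 115 (12.0%) had 2 or more, where the shares over all pairs were 34.9% and 11.4%. The share depends on the pairing distance and was 10.5% with pairs within 500 bp and 54.8% with overlapping positions. The share was 26.3% (22.96 to 29.9) for pairs above 1 and 44.0% (40.1 to 48.0) for pairs below 0.5. In all, 385 of the 3039 early positions without a late partner (12.7%) lay beside a mid-ratio pair and 350 (11.5%) beside one of the fewer pairs below 0.5. Beside mid-ratio pairs their median score was 9.76, and the median distance was 516 bp. They were mostly weaker than the pair they flanked: in 447 of 482 combinations (92.7%) the flanking score was lower, at the median 26.8% of the pair's early score. This was not particular to the band. The flanking score was lower in 78.9% of combinations for pairs above 1 and 94.9% for pairs below 0.5. Median scores of the flanking positions were 9.92 and 10.1 in these classes. A late position without an early partner lay within 1000 bp of 37 mid-ratio pairs (3.86%). Within the same 4 groups the shares of the mid-ratio pairs with an early flank, 16.8%, 29.3%, 39.6% and 50.2%, overlapped those of both other classes in their intervals.

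**Figure D4:**
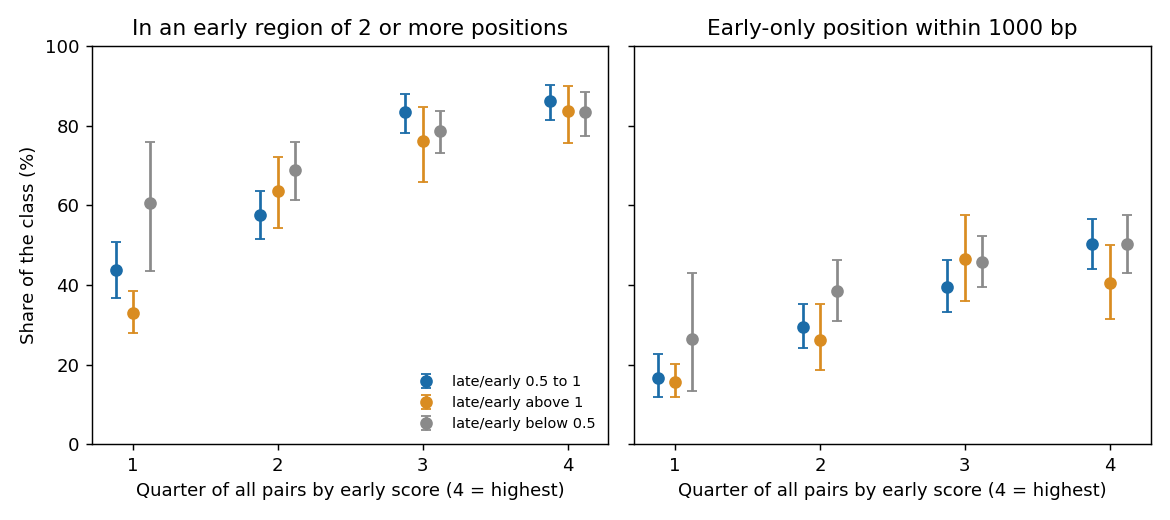
Pairs of the 3 ratio classes are divided into 4 equal groups by early score (horizontal axis, 4 is the strongest), and the points give the share of each class (%) that lay in an early region of 2 or more positions (left) or within 1000 bp of an early position without a late partner (right), with 95% exact binomial intervals. Both shares of the mid-ratio pairs (blue) are larger in stronger groups, from 43.7% to 86.3% and from 16.8% to 50.2%.

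Within a region, pairs of different ratio lay side by side. The mid-ratio pairs fell into 751 early regions, of which 590 held 1 of them, 124 held 2 and 37 held 3 or more. There were 459 regions with at least 2 mutual pairs, and 352 of these held a mid-ratio pair. In 73 (15.9%) every pair was in the band, in 139 a mid-ratio pair lay with a pair above 1, in 184 with a pair below 0.5, and 44 held all 3 classes. Of the next pairs along the chromosome in the same region, 334 of 705 neighbours of mid-ratio pairs (47.4%) were mid-ratio pairs too, where the share among all pairs of such regions was 45.6%. Next neighbours that were both in the band lay 358 bp apart at the median, with quartiles of 269 and 486 bp and a minimum of 138 bp.

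The strongest pair of a region was mostly the same at both ages. In the 459 regions with several pairs, the highest early pair was also the highest late pair in 345 (75.2%). In the 186 of these with 3 or more pairs it was in 131. In the 73 regions made up wholly of mid-ratio pairs it was in 64 (87.7%), and in 61 the full order of scores was kept. The 73 regions were not matched to the 459 in their number of pairs, and a smaller number favours agreement. A narrow range of ratios favours it too, since pairs in the band cannot differ by more than a factor set by its bounds. Of the 657 mid-ratio pairs in regions of 2 or more early positions, 292 (44.4%) were the highest early position of their region, beside 38.2% of pairs above 1 and 49.9% of pairs below 0.5.

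The regions with the most mid-ratio pairs were 1 with 6 of them and 6 with 4, of which 6 lay on X and 1 on 2L. The region with 6 and the 4 of the others with the strongest mid-ratio pairs by early score are described, which leaves out chrX:12525603-12528027 and chr2L:2855728-2857705. The region with 6, chrX:18409409-18411645, held 7 early positions in 2237 bp, and all 6 of its mutual pairs were in the band. Their early scores were, from left to right, 32.7, 24.8, 46.4, 35.4, 10.97 and 20.2, and their late scores were 16.7, 13.1, 36.4, 22.8, 9.72 and 12.9. The pair with 46.4 early was the highest at both ages, and the only early position outside these pairs was the weakest at 6.43.

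The region chrX:6572190-6573829, showed 1 dominant site. Its 4 pairs scored 15.9, 37.6, 9.998 and 143 early and 10.4, 18.9, 5.80 and 75.1 late, so the order was kept. The 3 further early positions, all to the right of the strongest pair, had no late partner and scored from 9.39 to 12.9. The region chrX:11017708-11019228, had 2 strong sites of nearly equal height. They scored 69.9 and 69.0 early and 61.9 and 67.6 late, so the order of these 2 was turned, by differences that have no replicate to set them against. Its weaker pairs scored 20.5 and 23.5 early and 14.4 and 12.8 late, so their order was turned too, again without a replicate.

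The other 2 regions were mixed. At chrX:17778785-17781580, 4 mid-ratio pairs lay with 1 pair below 0.5. The strongest scored 114 early and 84.3 late, while the rightmost pair went from 20.4 to 5.98. At chrX:9176032-9178494, 4 of 8 pairs were in the band. Its highest early pair, with 85.6 early and 38.7 late, had a ratio of 0.452, and the highest late score, 52.1, belonged to a mid-ratio pair 356 bp to the right that scored 72.5 early.

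**Figure D5:**
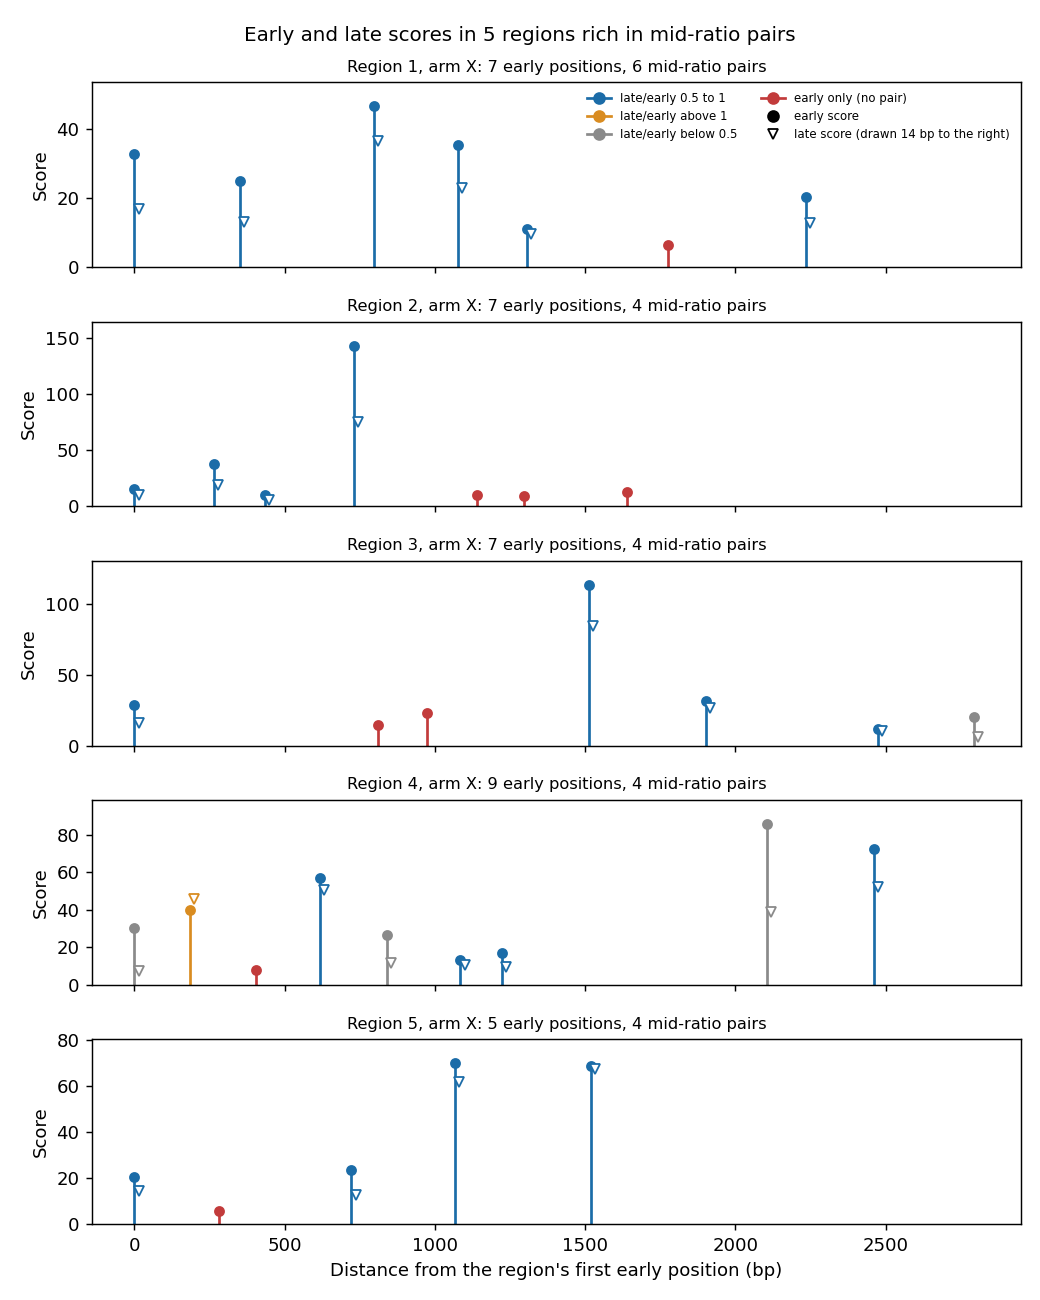
The panels show the early region with 6 mid-ratio pairs and 4 of the 6 regions with 4, those with the strongest mid-ratio pairs, with the distance from its first early position in bp on the horizontal axis and the score in the authors' units on the vertical axis. Stems with filled circles are early scores, open triangles are the late scores of the same pairs, and the colour gives the class. In panels 1, 2 and 5 every paired site is blue, and in panel 4 all 3 classes stand within 2463 bp.

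Longer runs also occurred on X. Along each chromosome, 20 runs of 5 or more neighbouring mutual pairs were all mid-ratio pairs. Mid-ratio pairs made up 42.9% of all pairs, so some such runs arise in any order. Whether 20 is more than that share gives was not tested. The longest were 2 runs of 10 pairs on X. The run from 16164908 to 16278984 spanned 114 kb and 5 regions, with early scores from 5.48 to 176 and ratios from 0.573 to 0.994. The run from 17985297 to 18411645 spanned 426 kb and 4 regions, with early scores from 10.6 to 46.4. On 2L a run of 7 pairs, each in a region of its own, covered 145 kb from 19426660, with early scores from 8.70 to 122. Since X had the larger share of mid-ratio pairs, longer runs there are favoured.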

How the data were processed

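The 2 deposited lists of called Insv positions were used, 1 per age, in dm3 coordinates. Per the submitters' processing notes, the aligner Bowtie and the build dm3 belong to the pipeline. How positions were called, and with which control, is not given in the sources used here. The score of each 2 bp position is the authors' deposited value, of unnamed scale. Rank numbers inside the deposited names were not used: ranks here order each list by score. Coordinates are 1-based. A tie for the nearest position went to the lower coordinate. Regions chained early positions up to 1000 bp apart. The step of the scores was fitted to scores between 10 and 30. Intervals are 95% exact binomial (Clopper-Pearson) intervals for shares. With 1 sample per group no test was made. Named sites follow a fixed rule (highest scores, by arm, alone, at the bounds, richest regions, largest rank shifts). The band, the lists and the descriptions were chosen with earlier results of these data known. The code was tested on simulated lists. Software was Python 3.11.15 (packages pandas 2.3.3, numpy 2.4.6, matplotlib 3.10.9, scipy 1.17.1).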

Additional observations from a re-analysis of the deposited data

How the results depend on the processing

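Values stayed within their main 95% intervals (counts within 1.5 times) in 43 of 74 combinations of result and alternative, and the rest are given here. The 43 include combinations that could hardly move. All mid-ratio pairs lay on the main arms, so taking those arms alone left every value as it was. Pairs within 500 bp gave 959 mid-ratio pairs, nearly the same set. Restricting pairs to overlap by at least 1 bp left 104 mid-ratio pairs, with a median late score of 14.2, 100% within 20 bp by construction, 56.7% in regions of 2 or more positions and 54.8% with an early flank. A ratio from 0.6 to 0.9 gave 572 and a median late score of 18.1. The highest-scoring 50% of each list gave 531, with median scores of 45.3 early and 31.2 late, 89.5% within 20 bp, 74.6% in regions and 39.0% with a flank. Dividing scores by their median over pairs gave 724 pairs, of which 304 (31.7% of the mid-ratio pairs) were shared and 420 had a printed ratio below 0.5, with medians of 28.1 and 12.5, 73.8% in regions and 39.2% with a flank. The alternative chosen after seeing the data was pairs with neither score on a step, which keeps every pair with both scores at 10 or less. It gave 584, with medians of 17.5 and 11.7, 17.5% on X (15.1% of all such pairs were on X), 63.0% in regions and 31.0% with a flank. Pairs within 50 bp gave 86.6% within 20 bp and 42.7% with a flank. The flank share was 41.1% with pairs within 100 bp, 10.5% within 500 bp, and 20.7% or 44.4% for flanks within 500 or 2000 bp. Chaining at 500 or 2000 bp put 59.2% or 74.7% in regions. By construction, an early position near a pair's own late position stops counting as a flank when the pairing distance reaches it: 3039 early positions lacked a late one within 200 bp and 2574 within 500 bp. No paired analysis was possible because there is a single library at each age, which also leaves no replicate to omit. Motif and annotation results were not run because no dm3 sequence or annotation was used here. Depth is unknown.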
